A study of Mus musculus with 8 samples.

Results

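The myogenic regulatory factors are 4 transcription factor genes, Myod1, Myf5, Myog and Myf6, and each was represented by 1 probe set among the 19938 genes measured in cultured mouse primary myoblasts. The probe sets were taken as the rows whose only gene symbol in the array's annotation was one of these names, with no second row for any of them. The RNA was that of satellite cells from the gastrocnemius muscle of C57bl/6 mice aged 2 to 3 weeks, cultured in proliferation medium on Matrigel. It was hybridised to Affymetrix MoGene 1.0 ST arrays. The 8 arrays carry 4 Runx1f/f labels and 4 WT labels, numbered 1 to 4 in each. Columns were given their labels by the sample named in the column header, and no value on the arrays could check that assignment, so every label below is the label as deposited. Runx1f/f mice carry floxed alleles of the transcription factor gene Runx1, and the labels also call these cells KO. No source used here gives the Cre recombinase, the deleted part of Runx1 or the number of animals behind a culture, so the spread between arrays may be partly technical.

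Myogenic regulatory factors are basic helix-loop-helix proteins that bind the E-box as dimers with ubiquitous E proteins. Myf5 and Myod1 commit cells to the muscle lineage and mark proliferating myoblasts, Myog drives terminal differentiation, and Myf6 is best known from late differentiation and adult fibres. Id proteins hold E proteins in inactive dimers, and Mef2 factors work together with the myogenic factors on muscle genes. Myf5 and Myf6 are next to each other on chromosome 10, with no other protein-coding gene between them in the RefSeq annotation, while Myod1 is on chromosome 7 and Myog on chromosome 1.

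The promoter windows of Myog and Myf5 are shown, the factors with the widest spread over the arrays, in opposite directions. The promoter sequences used held no window for Myod1 or Myf6. The window of Mybph is added, a myosin-binding protein gene that is a near neighbour of Myog and was higher on the same arrays. The sequences are from RefSeq on GRCm38.p6, run 5′ to 3′ on the strand of the gene and span 250 bases before to 50 bases after the start of the gene. Capitals mark matches to the E-box CANNTG and to the Runx core TGTGGT, searched on both strands.
Myog (chr1:134289754-134290053, plus strand): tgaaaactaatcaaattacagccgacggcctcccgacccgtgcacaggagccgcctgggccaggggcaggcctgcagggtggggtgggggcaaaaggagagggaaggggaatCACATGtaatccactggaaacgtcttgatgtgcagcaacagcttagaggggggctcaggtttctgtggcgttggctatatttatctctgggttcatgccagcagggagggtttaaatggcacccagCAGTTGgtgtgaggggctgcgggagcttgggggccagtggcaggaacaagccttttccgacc
Myf5 (chr10:107486085-107486384, minus strand): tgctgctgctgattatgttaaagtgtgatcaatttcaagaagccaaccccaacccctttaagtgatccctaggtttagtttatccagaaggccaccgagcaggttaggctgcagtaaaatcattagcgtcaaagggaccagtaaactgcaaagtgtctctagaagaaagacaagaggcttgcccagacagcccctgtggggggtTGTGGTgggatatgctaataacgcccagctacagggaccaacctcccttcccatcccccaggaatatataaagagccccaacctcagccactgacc
Mybph (chr1:134193198-134193497, plus strand): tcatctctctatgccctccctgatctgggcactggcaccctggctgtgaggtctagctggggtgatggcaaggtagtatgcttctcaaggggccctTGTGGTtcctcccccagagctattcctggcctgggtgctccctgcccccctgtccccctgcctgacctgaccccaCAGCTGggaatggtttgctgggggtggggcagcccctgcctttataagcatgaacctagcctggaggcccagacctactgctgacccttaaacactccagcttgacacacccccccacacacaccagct

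The Myog window holds 2 E-boxes, beginning at base -138 and base -12 from the start of the gene. The Myf5 window holds 1 Runx core, at base -46, and no E-box. Mybph has 1 E-box, at base -79, and 1 Runx core, at base -154. No match to the AP-1 motif TGANTCA lies in any of these windows, and no matches overlap. Of 32851 RefSeq promoter windows of the same length, 72.3% hold an E-box, 16.8% a Runx core and 7.81% the AP-1 motif. A match describes the letters only, and binding was not measured here.

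Values are log2 intensities. The deposited columns limit what can be compared: in every row, 3 sets of columns (all 4 WT arrays, the pair Runx1f/f 1 and 2, and the pair Runx1f/f 3 and 4) had equal means, to within 7.5e-05. Runx1f/f 1 and 2 are therefore mirror images about the gene's mean, as are Runx1f/f 3 and 4, and 8 arrays carry 5 free values per gene around its mean. The arrays also differed across many genes in a way that crossed the labels, with replicates 2 and 3 of both labels on one side and replicates 1 and 4 of both on the other. That division was chosen from the values of all genes on these same arrays, so the differences along it are given as a description with no test. It is not a labelled treatment or genotype, and no source used here says what distinguishes these arrays.

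Between the labelled genotypes the 4 factors could not differ, because the equal means fix the result. The limma test called 0 of 19938 genes higher (0%) and 0 lower (0%) in Runx1f/f at an adjusted p under 0.05, 0 genes had an unadjusted p under 0.05, and a variance prior with a trend also called 0. Myod1 averaged 11.35 ± 0.11 in Runx1f/f arrays and 11.35 ± 0.20 in WT arrays (SD, n = 4 each), and Myf6 averaged 8.18 ± 0.10 in Runx1f/f arrays and 8.18 ± 0.38 in WT arrays. The 4 Runx1f/f arrays are 2 mirrored pairs, so their SDs do not rest on 4 separate values. Runx1 itself averaged 9.67 ± 0.32 in Runx1f/f arrays and 9.67 ± 0.55 in WT arrays. Its label averages coincide by construction, like those of any other row, and cannot show whether the columns match their labels. That match remains in doubt. The source numbers that the labels attach to each sample were grouped here into runs, the first being 139 to 142. The labels themselves name no runs. Within these runs, Runx1f/f minus WT for Myod1 was -0.01, 0.14 and -0.13 in rising order of the numbers. Myf6 differed by -0.20, 0.22 and 0.18, Myf5 by 0.02, 0.36 and -0.40 and Myog by -0.04, -0.28 and 0.36. The first run held 2 arrays per label and the others 1 each, so no call was made within them, and their weighted sum is fixed at 0.

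Along the other division, Myog was higher and Myf5 and Myod1 were lower on replicates 2 and 3 than on replicates 1 and 4, without overlap. Myog was 1.69-fold higher, while Myf5 was 1.85-fold and Myod1 1.20-fold higher on replicates 1 and 4. Myf6 had a difference in the same direction as Myf5, with overlapping values. Over all genes, 9.87% were higher and 10.5% lower on replicates 2 and 3 without overlap, and 2.16% were higher and 0.727% lower by over 1.5-fold as well, a group that includes Myog among the higher and Myf5 among the lower genes.

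Myod1, the factor named beside Runx1 in the title of the series, read 11.24 and 11.26 in Runx1f/f 2 and 3 and 11.26 and 11.12 in WT 2 and 3. It read 11.46 and 11.44 in Runx1f/f 1 and 4 and 11.45 and 11.57 in WT 1 and 4. All of replicates 2 and 3 were below all of replicates 1 and 4, by a gap of 0.18. The means were 11.22 ± 0.07 on replicates 2 and 3 and 11.48 ± 0.06 on replicates 1 and 4 (SD, n = 4 each), a difference of -0.26. Myod1 had the narrowest range of the 4 factors, 0.45 from the lowest to the highest array. Of the 8949 genes with a mean of at least 5, 33.0% varied more between arrays than Myod1 and 21.0% had a larger difference between the sides.

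Myf5, the other early factor, read 7.54 and 7.90 in Runx1f/f 2 and 3 and 7.66 and 7.54 in WT 2 and 3. On the other side it read 8.67 and 8.31 in Runx1f/f 1 and 4 and 8.51 and 8.71 in WT 1 and 4. The sides were separated by 0.42, and the array on the low side nearest to the other side was Runx1f/f 3. Myf5 averaged 7.66 ± 0.17 on replicates 2 and 3 and 8.55 ± 0.18 on replicates 1 and 4 (SD, n = 4 each), a difference of -0.89. Its SD over the 8 arrays was 0.50, where the median SD of the 8949 genes was 0.12, and 2.69% of those genes had a larger difference in either direction.

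Myog, the factor of terminal differentiation, ran the opposite way. It read 11.94 and 11.48 in Runx1f/f 2 and 3 and 11.70 and 11.76 in WT 2 and 3. In Runx1f/f 1 and 4 it read 10.74 and 11.20, and in WT 1 and 4 it read 11.05 and 10.84. The sides did not overlap and lay 0.28 apart, with Runx1f/f 3 and Runx1f/f 4 nearest to each other. Myog averaged 11.72 ± 0.19 on replicates 2 and 3 and 10.96 ± 0.21 on replicates 1 and 4 (SD, n = 4 each), a difference of 0.76. A larger difference in either direction was found in 3.75% of the 8949 genes.

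Myf6, the late factor, read 8.09 and 8.09 in Runx1f/f 2 and 3 and 8.02 and 7.88 in WT 2 and 3. It read 8.27 and 8.26 in Runx1f/f 1 and 4 and 8.73 and 8.09 in WT 1 and 4. WT 1 stood highest, while WT 4 was level with Runx1f/f 2 and 3, so the sides overlapped, which they did not without WT 4. The means were 8.02 ± 0.10 on replicates 2 and 3 and 8.34 ± 0.28 on replicates 1 and 4 (SD, n = 4 each). The difference of -0.32 became -0.19 without WT 1.

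**Figure D1:**
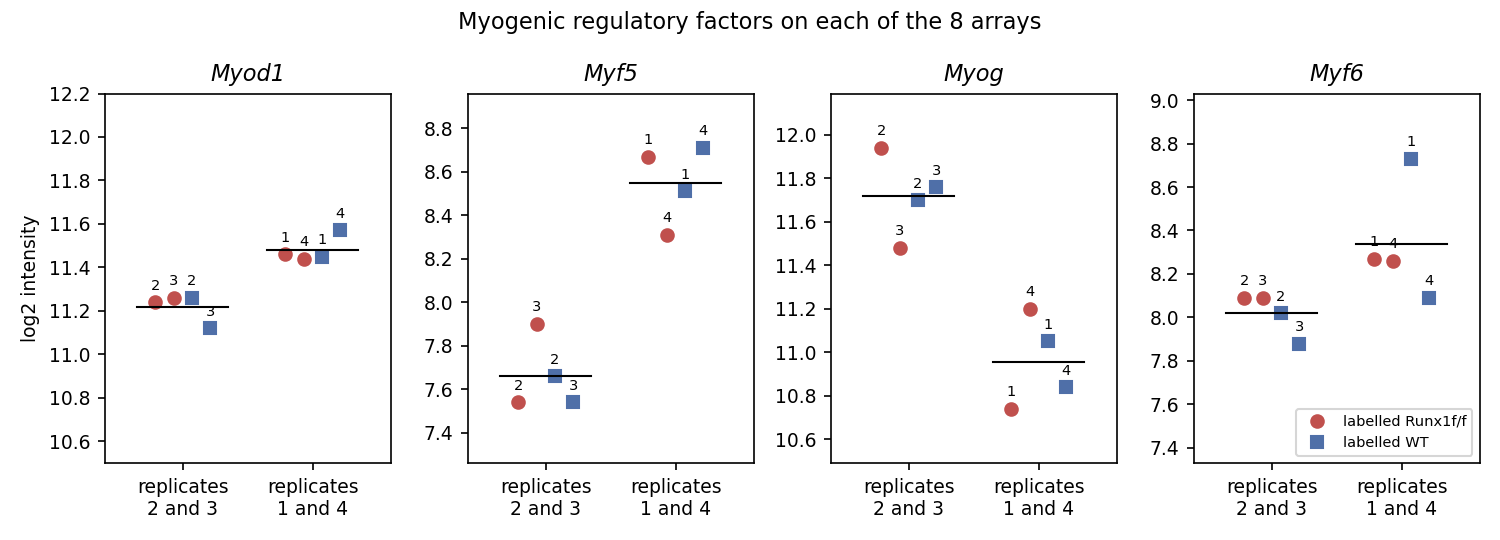
Log2 intensity of each factor (vertical axis, each panel spanning the same number of log2 units) on replicates 2 and 3 and on replicates 1 and 4. Circles are arrays labelled Runx1f/f, squares arrays labelled WT, digits the replicate number and lines the mean of 4 arrays; Myog is higher by 0.76 and Myf5 lower by 0.89 on replicates 2 and 3, and the Myf6 values overlap.

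The 3 sets of columns with equal means each give 1 difference along this division, and these 3 differences are the separate measurements behind the means above. Myog differed by 1.20 between Runx1f/f 2 and 1, by 0.28 between Runx1f/f 3 and 4, and by 0.78 between WT 2 and 3 and WT 1 and 4. For Myf5 the same 3 differences were -1.12, -0.42 and -1.01. For both genes the pair Runx1f/f 3 and 4 gave the smallest difference, with the same sign as the other sets. Myod1 differed by -0.21, -0.18 and -0.32, a closer range. Myf6 differed by -0.18, -0.17 and -0.46, so its mean rests mostly on the WT arrays. The arrays labelled Runx1f/f can show no overlap within a pair by construction, so single arrays there add nothing beyond the pair's difference.

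**Figure D2:**
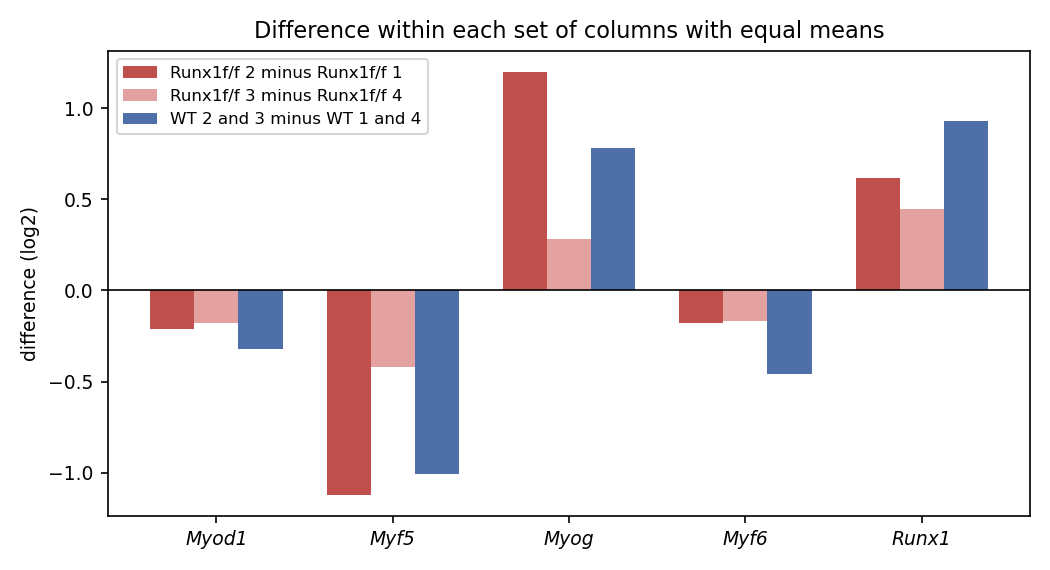
Log2 differences (vertical axis) of the 4 factors and Runx1 within the 3 sets of columns: Runx1f/f 2 minus 1, Runx1f/f 3 minus 4, and the mean of WT 2 and 3 minus that of WT 1 and 4. Each factor has 1 sign in all 3 sets, and Myog ranges from 0.28 to 1.20.

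Myf5 and Myod1 lay on the same side of their own means on 8 of 8 arrays, and Myog lay on the opposite side from both on 8 of 8. Myf6 shared the side of Myf5 and Myod1 on 7 of 8 arrays, the exception being WT 4. Runx1 followed Myog on 8 of 8 arrays. Runx1 averaged 10.03 ± 0.16 on replicates 2 and 3 and 9.30 ± 0.13 on replicates 1 and 4 (SD, n = 4 each), a difference of 0.74 without overlap. The mirrored Runx1f/f pairs fix the side of 1 array once the side of the other is known, so these counts of arrays describe the same 3 differences. Myod1, Myf5, Myog and Runx1 had no overlap along this division, which already sets nearly all of their sides. Over all genes, 9.87% were higher and 10.5% lower on replicates 2 and 3 without overlap. In bulk RNA, fewer cells in a given state and less RNA per cell cannot be told apart.

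The nearest protein-coding genes were set beside each factor. Mybph, the second protein-coding gene before Myog on chromosome 1, was 0.73 higher on replicates 2 and 3, and Ppfia4, the next gene after Myog, was 0.93 higher, both without overlap. Tmem183a, one gene further, differed by 0.08. Around Myf5 and Myf6 on chromosome 10, Lin7a differed by 0.03 and Ptprq by -0.08, both with overlapping sides. Further past Myf6, Otogl differed by 0.51 with overlap, and Ppp1r12a was 0.28 higher on replicates 2 and 3 without overlap. Next to Myod1 on chromosome 7, Otog was 0.15 higher without overlap and Kcnc1 differed by 0.03. Lin7a, Ptprq and Kcnc1 had means under 4, near the low end of the array's scale. Otog and Otogl were also dim, with means of 4.43 and 4.30 where the array medians were 4.39 to 4.41.

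Of 8 measured upstream regulators of the myogenic factors, 0 were past 1.5-fold without overlap in either direction, where 2.16% of all genes were higher and 0.727% lower. Without the fold limit, 1 was higher and 1 lower, 12.5% of the list each, near the 9.87% and 10.5% of all genes. Their median difference was -0.06, against -0.01 over all genes. Pax7, the satellite cell factor that acts on Myf5, averaged 7.11 on replicates 2 and 3 and 7.03 on replicates 1 and 4. Pitx3, a homeobox factor of muscle and lens, was 0.30 higher and Six4, another homeobox factor, 0.20 lower without overlap. Eya2 differed by -0.26 with overlapping sides, and by -0.62 in WT arrays. Its difference of 0.10 in Runx1f/f arrays averaged -0.09 between Runx1f/f 2 and 1 and 0.28 between Runx1f/f 3 and 4. The Eya2 mean of 4.05 lay below the array medians of 4.39 to 4.41. Eya1 differed by -0.09, also with overlap.

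Among 12 partners and coactivators, 1 was higher by over 1.5-fold without overlap and 0 were lower, where 2.16% and 0.727% of all genes were, and the median difference was 0.04. The higher gene was Mef2c, which acts with the myogenic factors on muscle promoters. It read 10.46 and 9.86 in Runx1f/f 2 and 3 and 9.74 and 9.96 in WT 2 and 3, against 8.26 and 8.86 in Runx1f/f 1 and 4 and 9.10 and 8.64 in WT 1 and 4, a difference of 1.29. Smarcd3, a subunit of the chromatin remodelling complex that binds with Myod1, was 0.32 higher, and Mef2a 0.23 lower, without overlap. The E protein genes Tcf3, Tcf4 and Tcf12 differed by 0.05, -0.20 and -0.09, with overlapping sides in each. The Tcf4 difference was -0.42 in Runx1f/f arrays and 0.02 in WT arrays.

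Of 17 inhibitors of myogenic factors, 2 were higher by over 1.5-fold without overlap and 0 were lower, where 2.16% and 0.727% of all genes were. Leaving out WT 1 left 1 of the 2. Without the fold limit 2 were higher, 11.8% of the list against 9.87% of all genes, and 6 were lower, 35.3% of the list against 10.5% of all genes. The median difference was -0.05. Zeb1, a zinc finger repressor that competes for E-boxes, averaged 1.01 more on replicates 2 and 3, and Heyl, a Notch target, 0.76 more. Hey1, a related Notch target, differed by 1.05 with overlapping sides. Zeb1 read 7.48 and 7.47 in Runx1f/f 2 and 3 and 7.74 and 7.74 in WT 2 and 3, against 6.73 and 6.74 in Runx1f/f 1 and 4 and 6.46 and 6.47 in WT 1 and 4. The lower genes included Id3 with a difference of -0.40, Id2 with -0.35 and Snai2, another E-box repressor, with -0.49. Id1 differed by -0.20 and its sides overlapped. Id4 went the other way, with a difference of 0.38 and overlapping sides. It differed by 0.68 between Runx1f/f 2 and 1, by 0.95 between Runx1f/f 3 and 4, and by -0.06 in WT arrays.

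Muscle genes known as targets of the myogenic factors mostly lay on the same side as Myog. Of 28 measured, 9 were higher on replicates 2 and 3 by over 1.5-fold without overlap and 0 were lower, which is 32.1% of the list where 2.16% of all genes were. Counted without the fold limit, 20 were higher and 1 was lower, 71.4% and 3.57% of the list against 9.87% and 10.5% of all genes, and the median difference was 0.42. At 2-fold, 3 were higher without overlap and 0 lower, where 0.802% and 0.176% of all genes were. Cav3, the muscle caveolin, had the largest difference of the list at 1.21. It read 9.74 and 9.46 in Runx1f/f 2 and 3 and 9.31 and 9.44 in WT 2 and 3, against 8.03 and 8.31 in Runx1f/f 1 and 4 and 8.57 and 8.21 in WT 1 and 4. The perinatal myosin Myh8 was 1.19 higher, the troponin Tnnt2 1.03 higher and the muscle creatine kinase Ckm 0.99 higher. The 1 lower gene was Chrna1, the acetylcholine receptor alpha subunit, at -0.14. The other receptor subunits Chrnb1, Chrnd and Chrng differed by 0.01, 0.05 and -0.13, and Chrne, with a mean of 3.84, by -0.10, with overlapping sides in each. Of the fusion genes, Mymk differed by 0.22 with overlapping sides and Mymx was 0.40 higher without overlap. The shares over all genes are not matched for brightness: 8949 of the 19938 genes had a mean of at least 5, as did every measured target gene but Chrne. Dim genes have less room to pass a fold limit, so the contrast is partly one of brightness. These gene lists were drawn up with earlier results from these arrays known, so their counts describe the lists and do not test them.

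**Figure D3:**
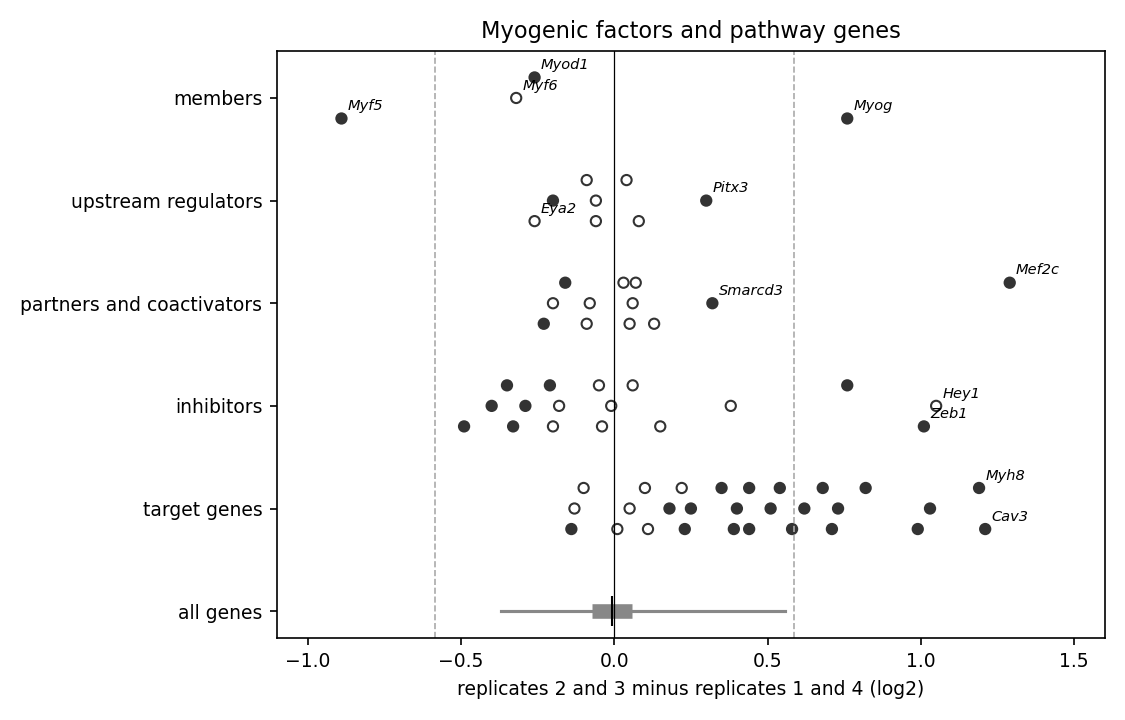
Difference between replicates 2 and 3 and replicates 1 and 4 (horizontal axis, log2) of the 4 factors and the measured genes of 4 lists. Filled points have no overlap between the sides, dashed lines mark 1.5-fold, and the grey bar and line of the bottom row span the percentiles 25 to 75 and 2.5 to 97.5 of all 19938 genes, the line running from -0.37 to 0.56; most target genes lie right of 0, with a median of 0.42.

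The genes nearest to each factor were sought over the 8 arrays by the root mean square difference between profiles centred on their own means, among 8805 genes with a mean of at least 5. Nearest to Myog were Hsf2bp at 0.0625, Twf2 at 0.0628, the muscle calcium pump Atp2a1 at 0.0667 and Mospd1 at 0.0712, where Myog's own deviation from its mean was 0.418. For Myf5, with a deviation of 0.47, the nearest were the growth factor Pgf at 0.0891, the lysyl oxidase Loxl3 at 0.125, Sfmbt1 at 0.132 and the protease Masp1 at 0.144. Myod1, with a deviation of 0.141, was nearest to Snd1 at 0.0233, Cab39l at 0.0248, the histone methyltransferase Suv39h2 at 0.0254 and Gpr137b-ps at 0.0263. Nearest to Myf6, whose deviation was 0.24, were Ostm1 at 0.0518, Dkk3 at 0.0681, Tesk2 at 0.0706 and Bcap29 at 0.0708. None of these 16 genes was in the lists of upstream regulators, partners, inhibitors or targets. The profiles share the 8 arrays and their mirrored columns, so closeness in shape is a description only.

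**Figure D4:**
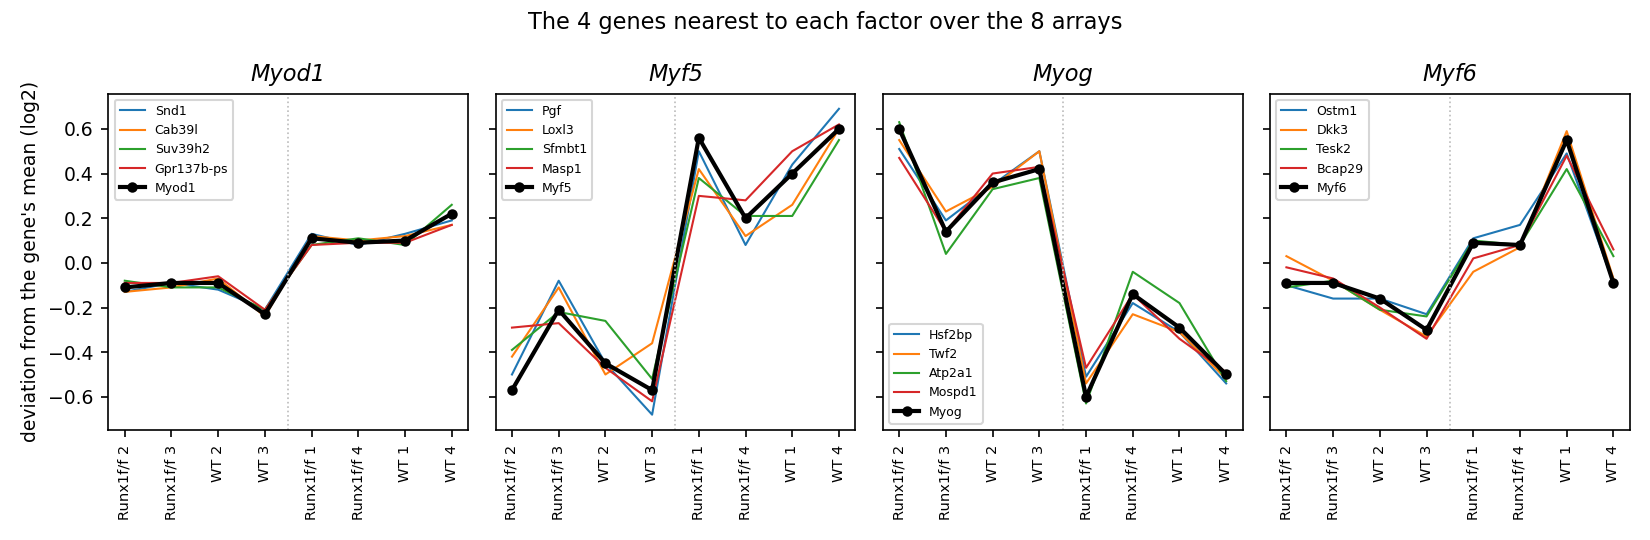
Deviation of each gene from its own mean (vertical axis, log2) on the 8 arrays (horizontal axis, replicates 2 and 3 left of the dotted line and replicates 1 and 4 right of it). The thick black line is the factor named above the panel and the coloured lines are its 4 nearest genes; the Myf6 panel differs from the others by its single high array, WT 1.

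Of the 6 myoblast markers, Des, the muscle intermediate filament, ranged from 11.13 to 11.47 over the 8 arrays and Cdh15, the satellite cell cadherin, from 9.90 to 10.38. Both were higher on replicates 2 and 3 without overlap, by 0.18 and 0.25. Sdc4, a syndecan of satellite cells, differed by -0.50 without overlap, and Itga7, Vcam1 and Pax7 differed by -0.11, 0.20 and 0.08 with overlap. Of 23 measured markers of fibroblasts, leukocytes, endothelium, pericytes and smooth muscle, adipocytes and Schwann cells, 20 had means from 3.28 to 4.66, in the low range of the scale. The other 3, Acta2, Col1a2 and Rgs5, had means above 5 and overlapping sides, and Acta2 is also made by myoblasts in culture. The summed linear intensity of all 23 ranged from 4246 to 5452 on replicates 2 and 3 and from 4296 to 5886 on replicates 1 and 4. Without those 3 it ranged from 274 to 284 on replicates 2 and 3 and from 260 to 268 on replicates 1 and 4, with Cspg4, a pericyte proteoglycan, 0.72 higher on replicates 2 and 3. Their part in the differences of the myogenic factors was not tested.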

How the data were processed

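The only data were the deposited log2 intensities of each probe set on each array, with array medians of 4.39 to 4.41. Per the submitters' processing notes, the tools were RMA and Partek, with no version given. A step that made the column means equal is not recorded in the sources used here. Of 35399 rows, 21789 had 1 gene symbol in the platform annotation, 1621 had several and 11989 were not annotated there. Each gene was represented by its brightest row. The labelled genotypes were fitted in R 4.3.3 by limma 3.58.1 with no other term. The test was two-sided, with Benjamini-Hochberg adjustment over 19938 genes and a threshold of 0.05. The fit was tried on simulated arrays that were independent of each other. Those had no mirrored columns or equal means, so that trial does not cover the columns used here. The residual degrees of freedom are overstated because of the equal means. No detection values were used, and the number of arrays limits the precision.

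The members, the lists and the division of replicates 2 and 3 against 1 and 4 were chosen with earlier results of these data known. Named genes were the members, Runx1, up to 4 genes per list with the largest absolute difference, Id1, Id2, Id3, Tcf3, Tcf4, Tcf12, Mef2c and Pax7, and the 4 genes nearest to each member, without predicted genes. Neighbours, marker genes, Id4 and the other target genes were named after their values were seen. Replicate numbers occur in both labels, and deviations from label means correlated by 0.39, 0.46, 0.60 and 0.57 for numbers 1 to 4. These values rest on mirrored columns, and the labels state no pairing, so the block was run as an alternative. Other alternatives were a block for source number runs, rescaling, a dim filter, all rows, other folds, each label alone and each array left out. Counts over the lists cover the genes with a single-symbol row, and some other list genes are not reported here.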

Additional observations from a re-analysis of the deposited data

Results flagged for a closer look

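Tcf12, an E protein gene, read 9.09 in WT 1, below the other arrays labelled WT, of which the nearest read 9.32 and the farthest 9.36. In the same gene, replicates 2 and 3 minus replicates 1 and 4 came to -0.32 in Runx1f/f arrays and 0.15 in WT arrays, without overlap in either label, and this difference between the labels was not tested. The WT value rests on the same low array: without WT 1 it was 0.04. The check for a far array could mark 43 groups, the WT values of the named genes, of which about 5% are marked by chance. Tcf12 in WT 1 was the only group it marked, which is no more than chance would give. The mirrored Runx1f/f values cannot be marked.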

How the results depend on the processing

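The number of genes called between the labelled genotypes was 0 under every alternative run, with the replicate block too, and the block changed no other call: with the replicate block the differences of Myod1, Myf5 and Myog were 0 and that of Myf6 was 2.5e-06. The equal means fix these counts where all columns are kept unscaled. With 1 array left out the counts are not fixed, but each difference is set by that array's deviation, so they do not test the genotype either. Then 10 to 27 genes had an unadjusted p under 0.05 without a WT array and 0 without a Runx1f/f array, and the adjusted count was still 0. Myf6 was among them without WT 1, with an unadjusted limma p of 0.0405. Centring each array on its median gave Myf6 a genotype difference of -0.00443 with the sign turned, where the value of 2.5e-06 as deposited is rounding. With 1 array left out, genotype differences ran from -0.0774 to 0.0739 for Myod1, -0.189 to 0.202 for Myf5, -0.201 to 0.201 for Myog and -0.1 to 0.184 for Myf6, set by the left-out array. Between replicates 2 and 3 and replicates 1 and 4, all 4 factors kept their sign in each label alone, after either rescaling, within source numbers 139 to 142 and with each array left out. For Myod1, Myf5 and Myog, which had no overlap, no choice among the arrays could turn the sign. Leaving out either array of a mirrored Runx1f/f pair gave the same value. Of the 39 other named genes, the same 15 moved by more than the SD between arrays of a side in each label alone. By construction the labels move by equal amounts in opposite directions, so these are not separate checks. With 1 array left out, the differences ran from -0.27 to -0.22 for Myod1, -0.97 to -0.84 for Myf5, 0.69 to 0.84 for Myog and -0.40 to -0.19 for Myf6. At 2-fold in place of 1.5-fold, 3 target genes in place of 9 and 1 inhibitor in place of 2 were higher without overlap. With 1 array left out, 7 to 12 target genes and 1 to 3 inhibitors were, with 1 inhibitor left without WT 1. No factor had another row to try. Depth limits were not assessed, because detection values were not analysed here.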
